A study of Mus musculus with 10 samples.

Results

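Klf2, Klf3, Tcf7, Lef1, Bach2, Foxo1, Id3, Ccr7 and S1pr1 are genes that resting naive and memory CD8 T cells express to stay quiescent, to persist and to circulate through lymph nodes. They were taken by name as a list of 9 genes, with no rule on their values, out of 55359 gene identifiers, at a time when earlier results of these data were known, and all 9 were among the 15777 genes with enough counts to be tested. They were followed across the 5 groups of a bulk RNA sequencing study of pmel-1 T cells, CD8 T cells of mice with a transgenic T cell receptor against gp100, an antigen of melanoma. All cells came from spleen, were activated for 48 h with the peptide hgp100 and were kept for a further 48 h with hIL-2, so every group consists of activated cells and none of naive cells. NoEp cells were not electroporated and carry the label WT. Mock cells were electroporated, and the sources used here do not say with which mRNA, if any. DRIL18 cells received mRNA for DRIL18, a form of interleukin 18 made to escape its decoy receptor. IL12 cells received mRNA for scIL-12, interleukin 12 as a single chain, and the cells called mixture received both mRNAs. RNA of the electroporated groups was taken 24 h after electroporation, a time that does not apply to NoEp cells. Each group had 2 libraries. The labels call the libraries biological replicates without saying that they came from separate animals, so the p-values cover no more than the spread between libraries, which may be technical.

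KLF2 is a zinc finger transcription factor that holds T cells in a resting state and switches on S1pr1, the receptor for sphingosine 1-phosphate with which lymphocytes leave lymph nodes. KLF3 is a relative that mainly represses transcription. FOXO1 stands upstream of several of these genes, Klf2, Tcf7 and Ccr7 among them, and is kept out of the nucleus when AKT phosphorylates it. TCF7 and LEF1 are related HMG box factors of naive, memory and stem-like T cells, ID3 holds back E protein transcription factors and marks long-lived memory cells, and BACH2 represses effector genes. CCR7 is the chemokine receptor that brings T cells into lymph nodes.

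For 7 of the 9 genes the RefSeq promoter table, on build GRCm38.p6, holds start sites, 11 in all. Klf2, Klf3, Id3 and Bach2 are shown because each has a single start site in the table and because they cover the kinds of response described below: both KLF genes fell step by step, Id3 followed IL12, and Bach2 fell mainly where both mRNAs were given. The windows are the 250 bases before the start, on the plus strand, at chr8:72318812-72319061 for Klf2, chr5:64803271-64803520 for Klf3, chr4:136143572-136143821 for Id3 and chr4:32417185-32417434 for Bach2. Capitals mark letters that match any of 7 motifs searched on both strands, where matches may overlap.
Klf2: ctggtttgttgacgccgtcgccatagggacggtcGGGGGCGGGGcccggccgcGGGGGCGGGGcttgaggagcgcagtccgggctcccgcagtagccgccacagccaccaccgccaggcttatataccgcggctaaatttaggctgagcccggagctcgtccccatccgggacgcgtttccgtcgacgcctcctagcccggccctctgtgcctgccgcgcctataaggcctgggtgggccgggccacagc
Klf3: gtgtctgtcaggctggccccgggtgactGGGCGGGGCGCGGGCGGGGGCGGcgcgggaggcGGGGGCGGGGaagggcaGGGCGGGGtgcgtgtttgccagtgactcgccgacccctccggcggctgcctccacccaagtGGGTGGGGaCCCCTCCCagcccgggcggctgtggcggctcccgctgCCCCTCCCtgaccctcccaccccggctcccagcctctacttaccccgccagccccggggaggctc
Id3: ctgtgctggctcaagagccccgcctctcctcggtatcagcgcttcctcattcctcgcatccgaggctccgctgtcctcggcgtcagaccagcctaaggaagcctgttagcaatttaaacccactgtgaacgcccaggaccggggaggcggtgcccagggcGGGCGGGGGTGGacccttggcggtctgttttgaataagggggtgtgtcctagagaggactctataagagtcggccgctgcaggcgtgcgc
Bach2: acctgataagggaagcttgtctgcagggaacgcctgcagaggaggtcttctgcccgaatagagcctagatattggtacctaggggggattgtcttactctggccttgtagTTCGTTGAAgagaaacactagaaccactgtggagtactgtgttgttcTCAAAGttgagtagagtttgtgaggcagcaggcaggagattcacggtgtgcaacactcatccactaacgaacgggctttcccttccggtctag

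In the windows of Klf2, Klf3 and Id3 every capital belongs to the KLF motif CCNCNCCC, with 4, 10 and 2 matches. Bach2 has no KLF match. Its capitals are 1 STAT motif (TTCNNNGAA), 140 bases before the start, and 1 TCF/LEF motif (CTTTGA, read on the other strand), 93 bases before it. The KLF motif stands in 9 of the 11 windows, which belong to 6 of the 7 genes, against 45.9% of all 32851 promoter windows of that length. This motif is rich in C, and that share was not matched for base composition. The G and C content was 71.2% for Klf2, 78.4% for Klf3, 62.8% for Id3 and 50.4% for Bach2. Lef1 has 4 of the 11 windows, and 2 of these overlap and share most of their letters. The TCF/LEF motif stands in windows of Bach2 and Lef1 (13.8% of all windows), the E protein motif CAGCTG in windows of Lef1 and Tcf7 (13%) and the STAT motif in that of Bach2 alone (7.02%). The FOXO motif GTAAACA (3.17%), the NF-kB motif (1.41%) and the T-box motif TCACACC (3.33%) match none of the 11. Such matches describe letters in these windows, and no binding was measured.

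The libraries held between 31281944 and 35062545 counts. Levels are given in CPM, counts of a gene per 1000000 counts of the TMM-scaled library, and a change is called at an adjusted p under 0.05 with edgeR's quasi-likelihood test. As a check of the labels, Il18 stood at 412 and 401 CPM with DRIL18 and at 402 and 360 in the mixture, against at most 2.32 in the other 6 libraries. All 9 CD8 T cell markers were present, and their summed level went from 4610 to 4670 CPM in Mock to 4240 to 4290 with DRIL18, 3750 to 3870 with IL12 and 3100 to 3110 in the mixture. All 3 gamma-delta T cell markers had counts, and their sum went from 85.5 to 86.7 CPM in Mock to 23.1 to 23.4 in the mixture. The sum of 11 B cell markers lay between 450 and 972 CPM, most of it Ighm, and that of the 8 outside the immunoglobulin genes between 16.0 and 28.4 CPM. Summed levels were between 30.1 and 51.4 CPM for 4 CD4 T cell markers, at 1.26 or less for 4 NK cell markers, at 2.2 or less for 7 myeloid markers and at 0.712 or less for 4 erythroid markers. The 6 dendritic cell markers reached 21.0 to 21.7 with IL12, mostly from Xcr1, against 4.76 to 4.98 in Mock, with Siglech at 0 in every library. These shifts accompany the groups in the results on the 9 genes, and their part in them was not tested. In bulk RNA, fewer cells that express a gene and less RNA per cell cannot be told apart.

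Against Mock, cells given both mRNAs had lower levels of all 9 genes. Klf2 was 12.4-fold lower, Klf3 6.31-fold, S1pr1 4.79-fold, Id3 3.30-fold and Tcf7 2.04-fold. The other 4 were between 1.57-fold and 1.98-fold lower, namely Lef1, Ccr7, Foxo1 and Bach2. All 9 passed the test, where 31.9% of all tested genes were called lower and 32% higher, and 5 fell by at least 2-fold, where 10.7% of all tested genes did. Their median log2 fold change was -1.03, while that of all tested genes was -0.002. Fewer of the 9 passed with a single mRNA. With IL12 7 fell and Foxo1 rose, where 23.6% of all tested genes were lower and 23% higher, and with DRIL18 5 fell, where 12.1% were lower and 12.2% higher. The median over the 9 genes was -1.25 with IL12 and -0.14 with DRIL18. The comparisons of DRIL18, IL12 and the mixture share the same Mock libraries.

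**Figure D1:**
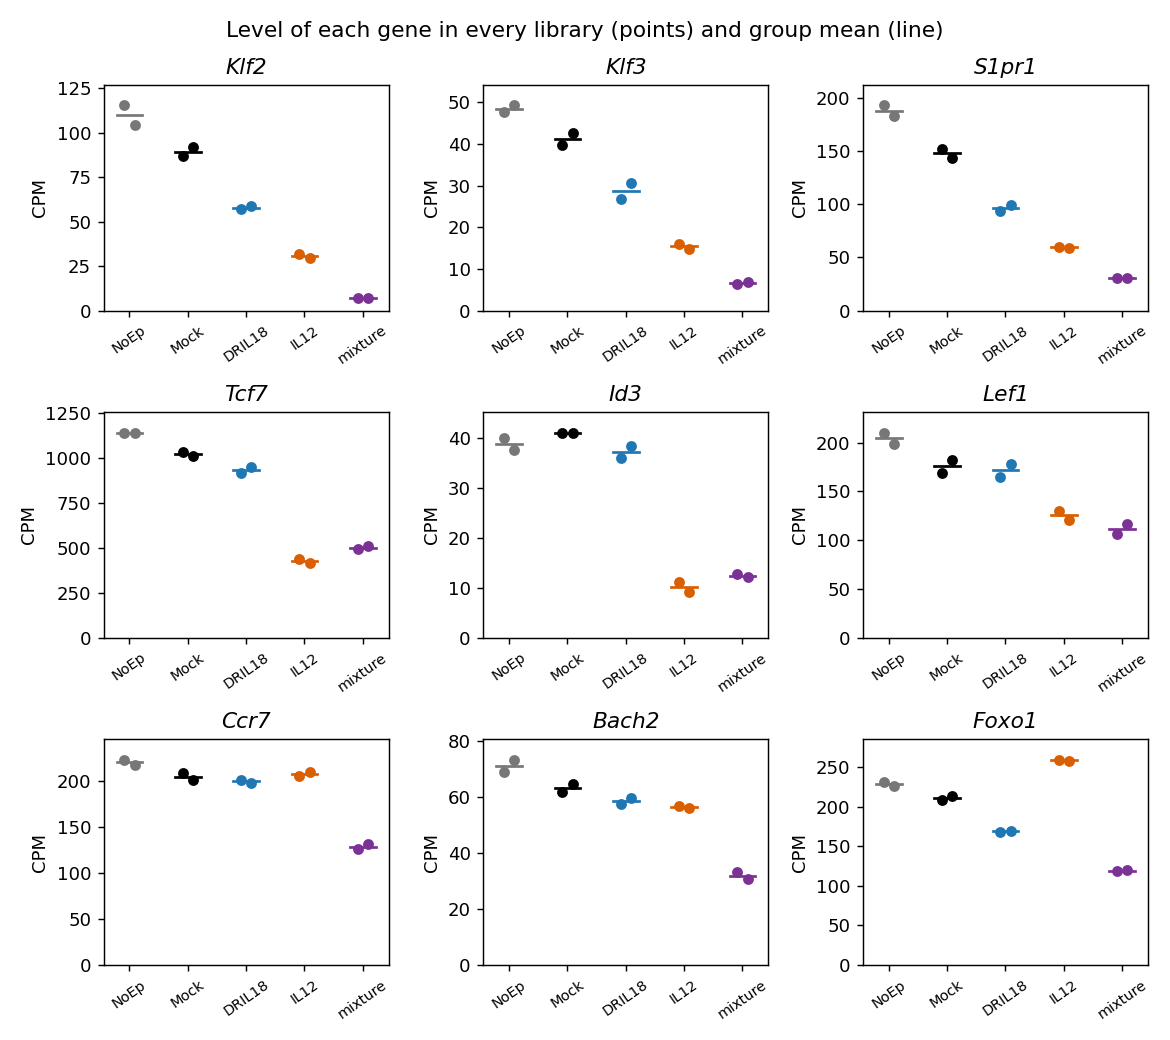
Level of each gene in CPM (vertical axis, linear from 0) in the 5 groups, with each library as a point and the mean of the 2 libraries as a line. Klf2, Klf3 and S1pr1 step down through all 5 groups, Tcf7 and Id3 are lowest with IL12, Ccr7 and Bach2 drop mainly in the mixture, and Foxo1 is highest with IL12.

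Klf2 fell in 4 steps, each of them called. Its 2 libraries per group held 115 and 104 CPM in NoEp, 86.8 and 91.7 in Mock, 57.2 and 58.7 with DRIL18, 31.8 and 29.5 with IL12 and 7.36 and 7.06 in the mixture. No 2 groups overlapped, and the mixture kept 8.07% of the Mock level. Relative to Mock the log2 fold change was -0.62 with DRIL18 (SE 0.054, adjusted p = 1.75e-10), -1.54 with IL12 (SE 0.058, adjusted p = 4.79e-20) and -3.63 in the mixture (SE 0.072, adjusted p = 1.21e-27). From IL12 to the mixture Klf2 went down by another 4.25-fold (adjusted p = 6.23e-20). It was the most strongly lowered of the 9 genes in the mixture, at rank 89 of the 15777 tested genes counted from the lowest fold change.

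Klf3 followed the same order at lower levels. It stood at 47.7 and 49.2 CPM in NoEp, 39.7 and 42.6 in Mock, 26.9 and 30.7 with DRIL18, 16.1 and 14.9 with IL12, and 6.28 and 6.76 in the mixture. Again no groups overlapped, and all 4 steps between neighbours passed the test, that from NoEp to Mock with an adjusted p of 0.0255. The mixture differed from Mock by -2.66 (SE 0.086, adjusted p = 2.78e-22) and from IL12 by -1.25 (adjusted p = 2.1e-12). An uncharacterised gene on the same strand and one on the other overlap Klf3 and held 1.8% and 1.55% as many counts.

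S1pr1, the egress receptor, had the same order of groups. Its libraries held 193 and 183 CPM in NoEp, 152 and 144 in Mock, 93.3 and 99.7 with DRIL18, 60.1 and 59.2 with IL12, and 30.7 and 31.1 in the mixture. Groups did not overlap and each of the 4 steps was called. Its log2 fold change against Mock was -0.62 with DRIL18 (SE 0.045, adjusted p = 3.78e-12), -1.31 with IL12 (adjusted p = 1.16e-20) and -2.26 in the mixture (SE 0.050, adjusted p = 1.92e-26). Klf2 and S1pr1 thus lost nearly the same share of RNA with DRIL18 alone, to 64.9% and 65.2% of Mock, while the mixture left 8.07% of Klf2 and 20.9% of S1pr1.

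Tcf7 gave the highest level of the 9 genes, also per length: 389 CPM per kb of exon in Mock, against 104 for Ccr7, 48.6 for S1pr1, 48.3 for Klf2, 24.3 for Foxo1, 22.9 for Id3, 20.0 for Lef1, 6.37 for Bach2 and 3.66 for Klf3. These lengths join the exons of all annotated transcripts, which puts genes with long alternative exons too low. In CPM, Tcf7 read 1141 in both NoEp libraries, 1031 and 1013 in Mock, 916 and 950 with DRIL18, 439 and 418 with IL12 and 493 and 509 in the mixture. The mixture thus lay above IL12 without overlap, and below the other 3 groups. Against Mock, the log2 fold change of Tcf7 was -1.25 with IL12 (SE 0.036, adjusted p = 4.67e-23), -1.03 in the mixture (SE 0.036, adjusted p = 2.37e-21) and -0.13 with DRIL18 (adjusted p = 0.00564). The call with DRIL18 was lost without Mock replicate 1 (-0.12, adjusted p = 0.0718) or DRIL18 replicate 1 (-0.11, adjusted p = 0.106). From IL12 to the mixture Tcf7 rose 1.17-fold (0.22, SE 0.036, adjusted p = 3.87e-06).

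Id3, like Tcf7, was lowest with IL12. Levels were 39.9 and 37.6 CPM in NoEp, 41.0 in both Mock libraries, 35.9 and 38.3 with DRIL18, 11.2 and 9.12 with IL12 and 12.7 and 12.1 in the mixture. In the order Mock, NoEp and DRIL18 neither step between neighbours was called, although both Mock libraries lay above both NoEp libraries. DRIL18 differed from Mock by -0.14 (95% interval -0.28 to -0.005), without overlap and not called (adjusted p = 0.132). IL12 left 24.8% of the Mock level (-2.01, SE 0.082, adjusted p = 3.02e-19), the deepest fall of the 9 genes with IL12, and the mixture 30.3% (-1.72, SE 0.078, adjusted p = 1.5e-18). Id3 was higher in the mixture than with IL12 (0.29, SE 0.094, adjusted p = 0.00967), a call that was lost without IL12 replicate 2 (0.15, adjusted p = 0.284) or mixture replicate 1 (0.26, adjusted p = 0.0721).

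Lef1 belongs to the same factor family as Tcf7 and fell in both groups given scIL-12 mRNA. It measured 210 and 198 CPM in NoEp, 169 and 182 in Mock, 165 and 178 with DRIL18, 130 and 121 with IL12 and 107 and 117 in the mixture. Mock and DRIL18 overlapped and their difference of -0.03 (95% interval -0.13 to 0.06) was not called. Lef1 fell with IL12 (-0.48, SE 0.049, adjusted p = 1.08e-09) and in the mixture (-0.66, SE 0.049, adjusted p = 3.97e-13). The step from IL12 to the mixture was called (-0.17, adjusted p = 0.00442), but not without IL12 replicate 1 (-0.12, adjusted p = 0.0729) or mixture replicate 1 (-0.11, adjusted p = 0.139).

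Ccr7 was called lower in the mixture and was not called with either mRNA alone. It stood at 223 and 218 CPM in NoEp, 209 and 201 in Mock, 202 and 198 with DRIL18, 206 and 211 with IL12, and 126 and 131 in the mixture. Mock overlapped with both single mRNA groups, and the mixture stood apart below all of them. With DRIL18 the log2 difference to Mock was -0.04 (95% interval -0.11 to 0.04), with IL12 0.02 (-0.06 to 0.10), and in the mixture -0.67 (SE 0.039, adjusted p = 7.47e-16). Of the 4 steps between neighbours in the order NoEp, IL12, Mock, DRIL18 and mixture, the last was the only one called (-0.64, adjusted p = 4.86e-15).

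Bach2 came close to that pattern. Levels were 69.0 and 73.3 CPM in NoEp, 61.9 and 64.7 in Mock, 57.7 and 59.7 with DRIL18, 56.8 and 56.1 with IL12 and 33.1 and 30.7 in the mixture. The first 4 groups lay between 56.1 and 73.3 CPM, and the mixture was below all of them, at 50.4% of Mock (-0.99, SE 0.056, adjusted p = 4.12e-16). DRIL18 differed from Mock by -0.11 (95% interval -0.22 to -0.002, adjusted p = 0.141), and the small fall with IL12 (-0.165, adjusted p = 0.011) was lost without Mock replicate 2 (-0.12, adjusted p = 0.147) or IL12 replicate 2 (-0.15, adjusted p = 0.0541). Bach2it1, a transcript inside Bach2 on its strand, held 3.67% as many counts as Bach2.

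Foxo1 moved in opposite directions with the single mRNAs. Its libraries held 232 and 226 CPM in NoEp, 208 and 214 in Mock, 168 and 170 with DRIL18, 260 and 259 with IL12, and 119 and 120 in the mixture. No groups overlapped, and IL12 was the highest group. Foxo1 rose with IL12 (0.30, SE 0.036, adjusted p = 4.46e-08), fell with DRIL18 (-0.32, SE 0.037, adjusted p = 6.37e-08) and fell further in the mixture (-0.82, SE 0.038, adjusted p = 2.24e-18). Adding DRIL18 to IL12 therefore went with a 2.17-fold lower level (-1.12, adjusted p = 1.67e-21).

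**Figure D2:**
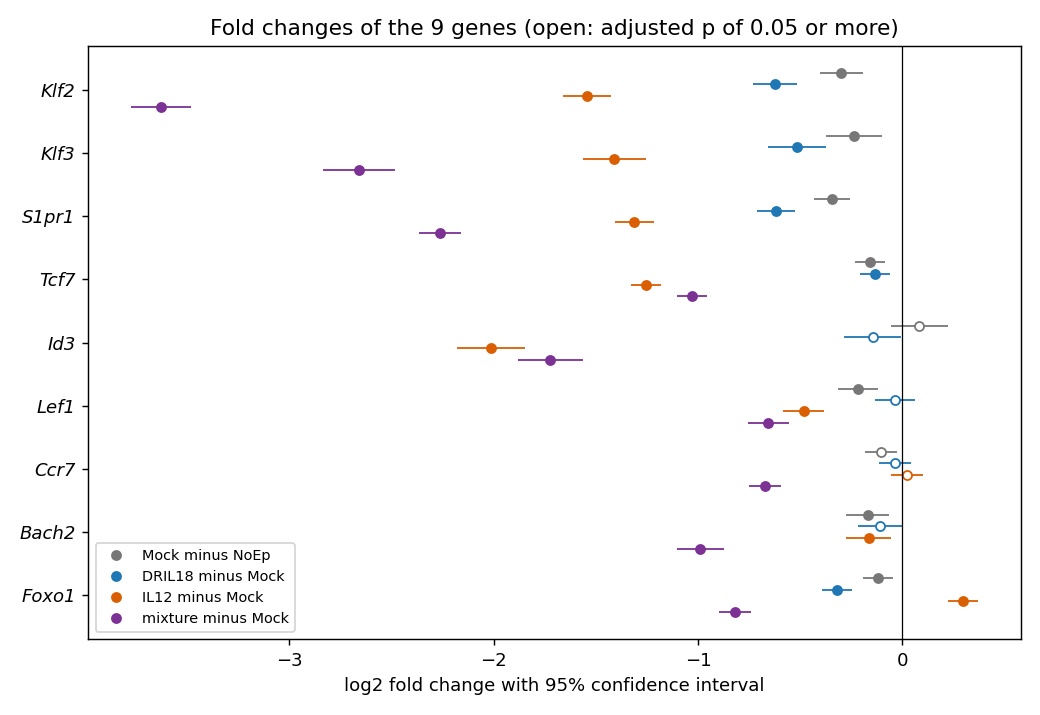
Log2 fold change (horizontal axis) of each gene with its 95% confidence interval for Mock against NoEp and for DRIL18, IL12 and mixture against Mock, where open points mark an adjusted p of 0.05 or more. The mixture lies left of 0 for all 9 genes, from -3.63 for Klf2 to -0.66 for Lef1, while Foxo1 with IL12 is the one called point to the right of 0.

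Whether both mRNAs together did more than the sum of each was tested as an interaction, in which the log2 fold changes of DRIL18 and of IL12 against Mock are both subtracted from that of the mixture. Of the 9 genes 6 lay below that sum and 2 above it, where 17.1% and 14.6% of all tested genes did. Klf2 was furthest below: the single effects added up to -2.165 and the mixture reached -3.63, an interaction of -1.46 (SE 0.099, adjusted p = 2.42e-13). For Foxo1 (-0.80, adjusted p = 1.32e-13), Klf3 (-0.73, adjusted p = 1.4e-05), Bach2 (-0.71, adjusted p = 8.3e-09) and Ccr7 (-0.66, adjusted p = 2.85e-11) the departures were of similar size. In Foxo1 and Ccr7 the single effects summed to -0.02 and -0.01, so nearly the whole fall in the mixture lay outside the sum. S1pr1 stood nearest to additivity among the genes called below the sum (-0.33, SE 0.070, adjusted p = 0.000371). Tcf7 (0.36, SE 0.051, adjusted p = 1.33e-06) and Id3 (0.44, SE 0.12, adjusted p = 0.00394) fell by less than the sum, Id3 not passing without IL12 replicate 2 (0.29, adjusted p = 0.0758). For Lef1 the interaction of -0.14 (95% interval -0.28 to 0.003, adjusted p = 0.134) was not called, but passed without IL12 replicate 2 (-0.19, adjusted p = 0.0445) or mixture replicate 2 (-0.21, adjusted p = 0.0409).

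**Figure D3:**
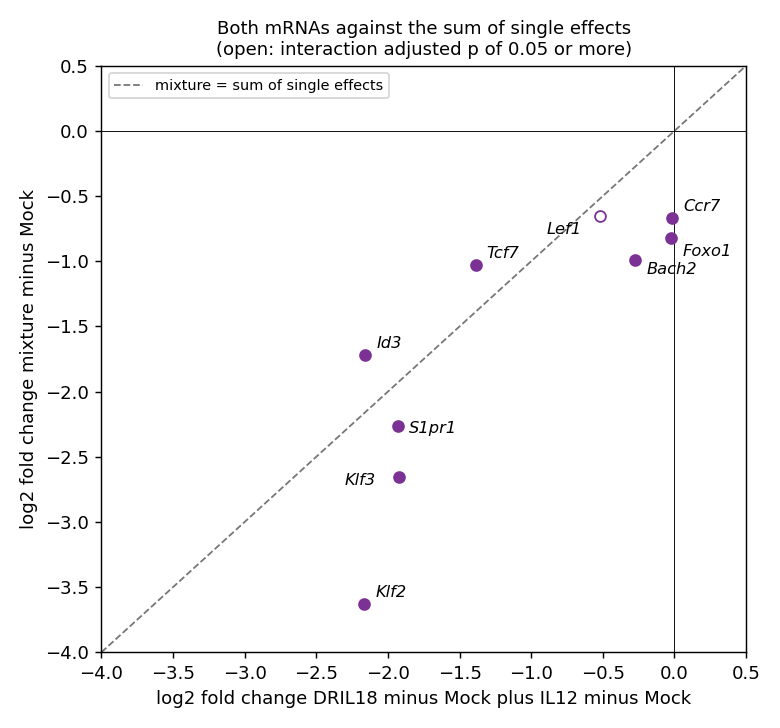
Difference of the mixture from Mock as a log2 fold change (vertical axis) beside the summed effects of DRIL18 and IL12 against Mock on the same scale (horizontal axis) for the 9 genes, with a dashed line where both are equal and an open point for Lef1, whose interaction was not called. Klf2 lies furthest below the line, Ccr7, Foxo1 and Bach2 sit near a sum of 0 and below -0.6, and Tcf7 and Id3 lie above the line.

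Between the single mRNAs, IL12 gave lower levels than DRIL18 for 6 genes and a higher level for Foxo1 (0.62, adjusted p = 5.67e-15), where 20.6% of all tested genes were lower and 18.9% higher. Id3 differed most (-1.87) and Tcf7 next (-1.12). Bach2 (-0.06, 95% interval -0.17 to 0.05) and Ccr7 (0.06, -0.02 to 0.14) were not called. From IL12 to the mixture 7 of the genes fell and 2 rose (26.3% lower and 25.8% higher over all tested genes), and from DRIL18 to the mixture all 9 fell (29% over all tested genes), from -0.50 for Foxo1 to -3.01 for Klf2 on the log2 scale.

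Mock differed from NoEp by small falls. In Mock 7 of the 9 genes were lower than in NoEp and none was higher, where 3.64% of all tested genes were lower and 3.34% higher, and none of the 7 reached 2-fold. S1pr1 (-0.34, SE 0.043, adjusted p = 7.88e-06) and Klf2 (-0.30, SE 0.051, adjusted p = 0.000435) fell most, and these were the genes that passed in each of the 17 alternative fits, at largest adjusted p-values of 0.0166 and 0.0458. Klf3 (-0.24), Lef1 (-0.22), Bach2 (-0.17), Tcf7 (-0.16) and Foxo1 (-0.12) each lost the call in some fits. Both NoEp and both mixture libraries, but no Mock library, carry the mark bis in their column names. Replicate 2 of DRIL18 and replicate 2 of IL12 carry it too, and the sources used here do not explain it. The mark does not vary within NoEp, Mock or the mixture. A fit with it as a covariate estimates its effect only within DRIL18 and IL12, where it coincides with the replicate number. Between Mock and NoEp or the mixture, the mark and the treatment cannot be told apart without that estimate. With that mark as a covariate all 9 genes stayed called in the mixture against Mock, among 8486 called genes in place of 10081. In Mock against NoEp 2 of the 9 genes stayed called with it, Klf2 and S1pr1. Without Mock replicate 1 the number was also 2, without Mock replicate 2 or NoEp replicate 1 it was 3, and without NoEp replicate 2 it was 4. Ccr7 (-0.11, adjusted p = 0.0941) and Id3 (0.08, adjusted p = 0.56) were not called.

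Genes whose profile over the 10 libraries came closest to each of the 9, among genes of at least 5 CPM, were found by the root mean square difference of centred log2 CPM. For Klf2 these were Rasgrp2, an exchange factor for the small GTPase RAP1 that acts in integrin activation (0.13, against a swing of Klf2 itself of 1.41), and Actn2 (0.18). For S1pr1 they were Tsc22d3, which encodes the glucocorticoid-induced protein GILZ (0.096), and Plekhg3 (0.10). For Klf3 they were Gm20559 (0.17) and Dnah8 (0.18), with S1pr1 equally near at 0.17. Tcf7 was closest to Parp8 (0.091) and Adgrg5 (0.098), Id3 to Hemgn (0.22) and Sit1 (0.22), and Lef1 to Bicra (0.058) and Bbs9 (0.064). Bach2 was closest to the interferon gamma receptor gene Ifngr1 (0.044) and the CD3 chain gene Cd3g (0.050), Foxo1 to H2afy (0.047) and Skap1 (0.057), and Ccr7 to Unc119b (0.045) and Tapt1 (0.045). Cd3g is also one of the CD8 T cell markers, at 463 and 444 CPM in Mock and 225 and 209 in the mixture. The swings of the other genes themselves were 1.06 for Klf3, 0.935 for S1pr1, 0.886 for Id3 and 0.576 for Tcf7. They were 0.403 for Bach2, 0.393 for Foxo1, 0.33 for Lef1 and 0.283 for Ccr7, so small distances there go with small swings. The 10 points of each profile come from the same 5 groups.

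Other genes of naive and memory cells and of lymph node homing were more often called lower than higher in the mixture and evenly divided with IL12. Of 31 tested, 21 were called lower and 7 higher in the mixture than in Mock, with a median log2 fold change of -0.94, beside 31.9% lower and 32% higher over all tested genes. With IL12 14 were lower and 14 higher (median -0.03), beside 23.6% and 23%, and with DRIL18 17 were lower and 5 higher (median -0.15), beside 12.1% and 12.2%. The counts of the further lists below are to be read against the same shares. The largest falls in the mixture were in Il6ra, a receptor chain for interleukin 6 (-3.57, SE 0.25, adjusted p = 1.02e-13), in Eomes, a T-box factor of memory cells (-3.43, SE 0.17, adjusted p = 2.65e-17), in Nsg2 (-2.86, adjusted p = 5.82e-24) and in Nt5e, which encodes the ectonucleotidase CD73 (-2.77, adjusted p = 6.02e-19). Nt5e rose with IL12, to 42.6 and 45.9 CPM from 17.6 and 16.6 in Mock, and stood at 2.31 and 2.73 in the mixture. Eomes held 15.2 and 11.3 CPM with IL12 against 13.7 and 13.2 in Mock (adjusted p = 0.866), and 1.255 and 1.245 in the mixture. The interaction was called below 0 for 20 of the 31 and above 0 for 2, beside 17.1% and 14.6% of all tested genes, and 9 were not called.

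Il7r, the receptor for the survival cytokine interleukin 7, is a further gene of this list that was chosen after its values were seen. It rose with IL12 and fell in the mixture, as Foxo1 did. With DRIL18, where Foxo1 fell, Il7r was not called (0.04, adjusted p = 0.49). It read 188 and 181 CPM in Mock, 227 and 219 with IL12, and 93.7 and 93.6 in the mixture. Its log2 fold change against Mock was 0.27 with IL12 (adjusted p = 4.05e-07) and -0.98 in the mixture (adjusted p = 8.74e-20), with an interaction of -1.29 (SE 0.055, adjusted p = 2.89e-18).

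Quiescence and cell cycle exit genes were lower in the mixture for 16 of 24 and higher for 3 (median -0.48), against 13 lower and 7 higher with IL12 (median -0.21). Pik3ip1, an inhibitor of PI3K, fell from 46.5 and 44.8 CPM in Mock to 5.69 and 5.31 (-3.05, SE 0.080, adjusted p = 1.44e-24). Tsc22d3 (-2.05), the cell cycle inhibitor gene Cdkn2c (-1.54) and the stress-induced gene Sesn1 (-1.52) fell as well, at adjusted p-values of 8.84e-21, 6.42e-22 and 4.66e-22.

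Relatives of the KLF, FOXO, BACH and ID genes did not share one direction. Of 13 tested out of 21, 6 were lower and 3 higher in the mixture, with a median of -0.04, beside 31.9% and 32% of all tested genes. Klf13 (-1.35, adjusted p = 1.4e-23), Bach1 (-1.26, adjusted p = 2.9e-15), Klf10 (-1.02, adjusted p = 2.77e-13) and Klf11 (-0.52, adjusted p = 0.000649) were the largest called changes. The 3 called higher were Klf16 (0.48), Klf7 (0.47) and Id2 (0.17). Klf13 stood at 341 and 343 CPM in Mock, 370 and 380 with IL12 and 139 and 129 in the mixture.

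Among partners of TCF/LEF and of E proteins, 11 of 15 were lower in the mixture and 3 higher (median -0.315), and 12 were lower and 1 higher with IL12. Axin2, a classical target and inhibitor of the beta-catenin pathway in which TCF7 and LEF1 act, went from 22.6 CPM in both Mock libraries to 10.7 and 11.3 with IL12 and to 5.87 and 5.58 in the mixture (-1.98, SE 0.093, adjusted p = 3.4e-18). Axin2 was lower in the mixture than with IL12 (-0.94, adjusted p = 2.93e-09), whereas Tcf7 was higher there. The co-activator gene Bcl9l (-1.82, adjusted p = 4e-23), the co-repressor gene Tle4 (-1.54, adjusted p = 3.61e-20) and Nfatc1 (-1.10, adjusted p = 1.51e-21) also fell.

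In the S1P and CCR7 pathways 10 of 21 tested genes were lower and 6 higher in the mixture (median -0.0954), beside 31.9% and 32% of all tested genes, so the count of higher genes is near that background. Rasgrp2 fell to 26.8 and 29.1 CPM from 355 and 349 in Mock (-3.66, SE 0.046, adjusted p = 1.17e-32). Cd69, whose product binds S1PR1 and takes it off the cell surface, rose as S1pr1 fell: it read 30.2 and 29.8 CPM in Mock, 45.3 and 43.9 with DRIL18, 67.2 and 58.9 with IL12 and 247 and 246 in the mixture (3.04, SE 0.055, adjusted p = 9.96e-29). Gpr183, an oxysterol receptor, rose with IL12 (1.956) and in the mixture (1.957), with a difference between these groups of 0.002 (adjusted p = 0.984). The gene with the symbol Mst1, which in the mouse is macrophage stimulating 1 and not the kinase of that name, fell (-1.63, adjusted p = 1.2e-09), and the kinase gene Stk4, named after its value was seen, fell too (-0.63, adjusted p = 3.57e-16).

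Of 16 regulators of effector differentiation 12 were higher in the mixture and 3 lower (median 1.34), beside 32% and 31.9% of all tested genes, and 13 were higher and 2 lower with IL12 (median 0.835), beside 23% and 23.6%. Zeb2, a repressor of memory fate, rose from 2.58 and 2.83 CPM in Mock to 25.0 and 25.5 in the mixture (3.23, SE 0.13, adjusted p = 3.08e-20). Bhlhe40 reached 715 and 721 CPM from 85.5 and 85.4 (3.07, adjusted p = 9.05e-33), Irf8 rose with IL12 (2.32) and in the mixture (1.97), which was lower than IL12 (-0.34, adjusted p = 2.44e-08), and Cd69 belongs to this list too. Among genes that control FOXO1 through PI3K and AKT, 10 of 20 were lower and 5 higher in the mixture (median -0.13). Sgk1, a kinase related to AKT, fell most (-2.94, SE 0.11, adjusted p = 3.25e-20), followed by Sgk3 (-1.11), the phosphatase gene Inpp5d (-0.99) and the catalytic subunit gene Pik3cd (-0.99). The medians over all tested genes were 0.0043 (DRIL18), -0.0065 (IL12) and -0.0021 (both mRNAs). Ifng, the cytokine that IL-12 and IL-18 induce, ran from 0.906 and 1.43 CPM in Mock to 8882 and 9109 in the mixture.

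**Figure D4:**
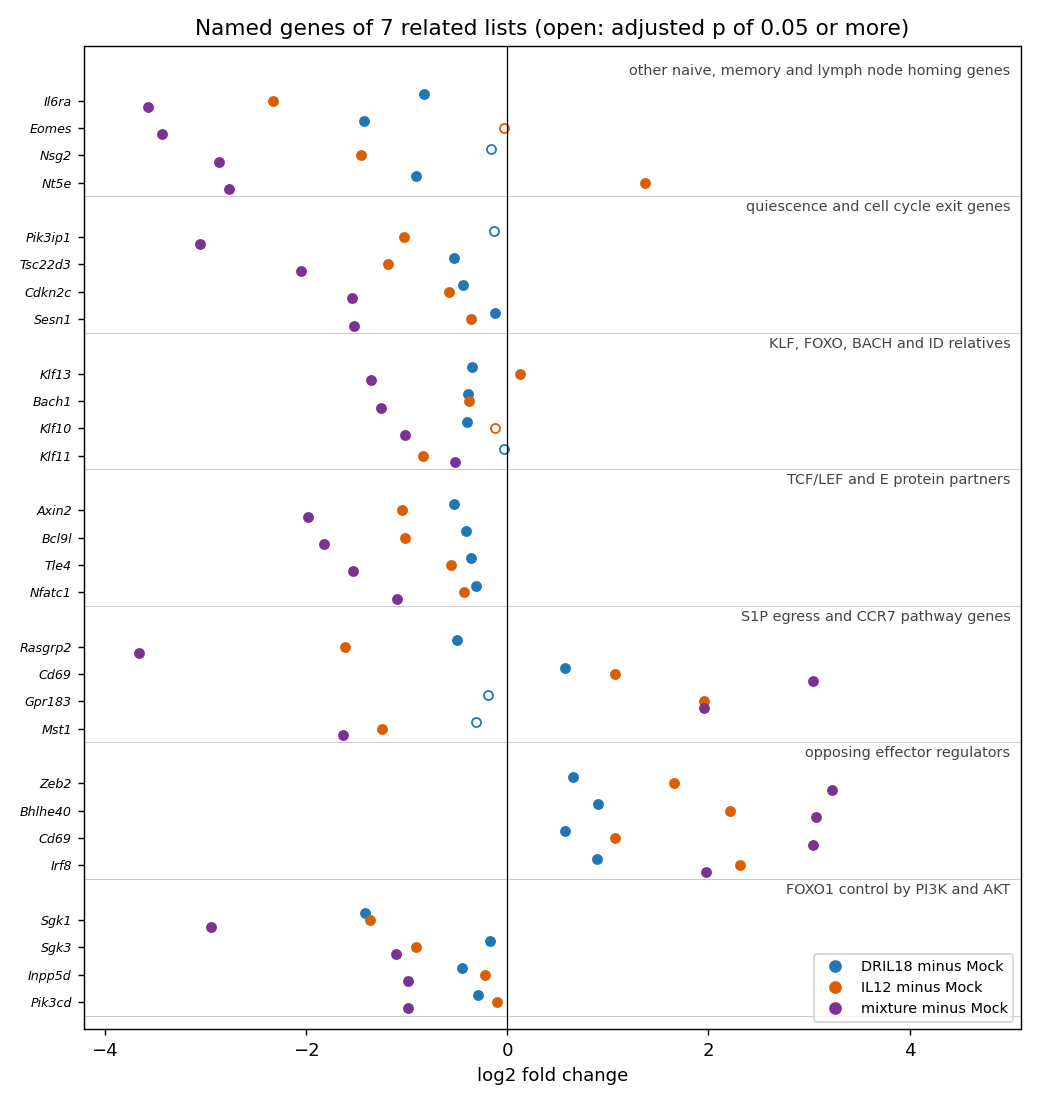
Log2 fold change against Mock (horizontal axis) with DRIL18, IL12 and the mixture for up to 4 genes of each of 7 related lists, set slightly apart in height, where open points mark an adjusted p of 0.05 or more. In the mixture all named genes lie left of 0 except Cd69 and Gpr183 and the 4 effector regulators, and Nt5e and Klf13 lie right of 0 with IL12.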

How the data were processed

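Bulk RNA of 10 libraries was prepared with a stranded mRNA kit, per the labels' protocols. The submitters' processing notes name STAR 2.7.9, the mouse build mm39, featureCounts, edgeR and limma. The sources used here do not give the strand setting, the annotation release or the handling of reads with several alignments. The authors deposited raw counts per gene for 55359 Ensembl identifiers and log2 CPM for 13225 of them. That log2 table equals limma's voom on the deposited counts (largest difference 5e-14, tolerance 1e-10) and was not tested itself.

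Symbols and exon lengths came from GENCODE M21 on GRCm38 by Ensembl identifier, which matched 52083 identifiers and left 3276 unmatched. No coordinates were mixed between builds.

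Counts of all 10 libraries were fitted in edgeR 4.0.16 (R 4.3.3) with 5 group means, TMM factors (0.9547 to 1.027) and filterByExpr, which left 15777 genes. The quasi-likelihood F test was used with Benjamini-Hochberg adjustment over all tested genes of a comparison. Beyond counting error, replicates varied by 3.39% (common coefficient of variation). Standard errors are the log2 fold change divided by the root of F. The script was tested on simulated data.

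The 9 genes and the lists were chosen with earlier results of these data known. Named genes are the 9, up to 4 genes per list with the largest called change in the mixture against Mock (libraries not overlapping, at least 5 CPM in the higher group), the 2 nearest profiles of each, Ifng and Il18. Alternatives were other size factors, no filter, DESeq2 1.42.0, limma-voom 3.58.1, only the groups compared, each library left out, the replicate number as a block and the mark bis as a covariate.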

Additional observations from a re-analysis of the deposited data

Results flagged for a closer look

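The effect of DRIL18 mRNA differed between cells with and without scIL-12 mRNA for 8 of the 9 genes by the interaction test in edgeR, in which 17.1% of all tested genes were called below 0 and 14.6% above it. The interactions on the log2 scale were -1.464 for Klf2, -0.7971 for Foxo1, -0.7325 for Klf3, -0.7143 for Bach2, -0.6575 for Ccr7 and -0.3327 for S1pr1, which fell further in the mixture than the sum of the single effects, and 0.4364 for Id3 and 0.3572 for Tcf7, which fell less far. With 2 libraries per group, no group was large enough to test single libraries as outliers.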

How the results depend on the processing

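The 9 genes in 8 comparisons were refitted under 17 alternatives, all planned. Of 1224 values, 1179 kept their direction and their side of the threshold, 41 lost the call, 2 gained it and 2 turned in direction. In the mixture against Mock, the mixture against DRIL18 and IL12 against DRIL18, 153 of 153 values kept both, as did all 459 values of the named list genes in the mixture against Mock. Mock against NoEp depended most on the processing, with 32 of 153 values losing the call. With the mark bis as a covariate, 172 genes were called there in place of 1102, and 2 of the 9 in place of 7. Leaving out 1 library in turn gave between 242 (without Mock replicate 1) and 1399 genes and between 2 and 7 of the 9; without Mock replicate 2 there were 349 genes, and without NoEp replicate 2 there were 350. For DRIL18 against Mock the range was 2525 (without Mock replicate 2) to 4125 genes, around 3832. Lef1, DRIL18 minus Mock, ran from -0.0912 to 0.0238 with 1 library left out and was above 0 without Mock replicate 2 (0.0238) or DRIL18 replicate 1 (0.0178), not called in either. The cause was not tested. Samples with the same replicate number did not deviate together (correlations from -0.032 to 0.049 over 10 pairs of groups). No pairing by number was thus visible, and the labels do not say whether the numbers pair the samples. With the replicate block the number of the 9 genes called was 7, 5, 8, 9, 9, 9, 7 and 8 in the 8 comparisons, the same as without it, and the genes called in Mock against NoEp numbered 1104. Where 1 library is left out, the lone library of its group is assumed to vary like the other groups. Depth limits the lowest levels most, such as Klf3 in the mixture.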

Other observations

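Receptors and factors related to the 9 genes, chosen after their values were seen, did not all go down. Among the S1P receptors, S1pr2, which signals against migration, was called higher in the mixture and was not called with DRIL18 (0.28, adjusted p = 0.0501) or IL12 (0.12, adjusted p = 0.367). It held 9.93 and 12.3 CPM in Mock, 12.2 and 14.7 with DRIL18, 12.5 and 11.7 with IL12 and 28.7 and 30.7 in the mixture (1.42 against Mock, SE 0.096, edgeR adjusted p = 3.52e-14). S1pr4 fell with DRIL18 (-0.40, adjusted p = 1.46e-08) and in the mixture (-1.39, SE 0.045, adjusted p = 3.32e-22), where it stood at 52.7 and 50.9 CPM against 137 and 134 in Mock. S1pr3 read 1.52 and 1.51 CPM in the mixture and at most 0.377 in the other libraries. Id2, the relative of Id3 that effector cells use, rose with IL12 (0.82, adjusted p = 1.19e-16), fell with DRIL18 (-0.33, adjusted p = 4.33e-07) and was slightly higher than Mock in the mixture (0.17, adjusted p = 0.000699).

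Some genes of naive and memory cells rose in the mixture, where the 9 genes fell. Satb1, a chromatin organiser of naive T cells, went from 328 and 333 CPM in Mock to 717 and 699 with IL12 and to 817 and 831 in the mixture (1.32, SE 0.036, adjusted p = 3.73e-24). Bcl6, a repressor that supports memory cells, rose from 7.16 and 6.72 CPM to 16.2 and 17.4 in the mixture (1.27, adjusted p = 3.02e-12). Il6st, the signalling chain shared by receptors of the interleukin 6 family, rose to 487 and 497 CPM with IL12 and to 193 and 182 in the mixture, from 85.7 and 89.3 in Mock (1.1 in the mixture, adjusted p = 1.75e-20), whereas Il6ra, the chain that binds interleukin 6, fell in both. Cd27, a costimulatory receptor of naive and memory cells, fell to 61.3 and 63.0 CPM in the mixture from 240 and 241 in Mock (-1.95, SE 0.040, adjusted p = 2.36e-27).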
